A study of Homo sapiens with 4 samples.

Results

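NF-kappaB genes were examined after an inhibitor of miR-204-5p was given to HeyA8-MDR, an established line of human ovarian carcinoma cells with multidrug resistance. The set held 37 genes named for the NF-kappaB pathway: its transcription factor subunits, its inhibitors and feedback genes, its signalling proteins, its secreted targets and a few further targets. They were found in the platform annotation by gene symbol, with the brightest feature standing for a gene over the 4 arrays, and no measured member had more than 1 feature. In this way 30 of the 37 genes were measured among 21448 features. BCL3, ZC3H12A, TRAF2, BIRC3, TNF, CSF2 and SOD2 had no feature under their symbol and were not analysed here. The inhibitor group consisted of 2 arrays labelled miR204, from cells given an inhibitor of miR-204-5p. The control group consisted of 2 arrays without that label, taken from the titles and the design text as cells given a control microRNA inhibitor, although the note on treatment gives the same inhibitor, that of miR-204-5p, for all 4. A microRNA inhibitor is an antisense oligonucleotide that binds and blocks a mature microRNA. Both groups shared 1 cell line and the same medium, with 15% serum and paclitaxel at 300 ng/ml. All values are log2 expression values from Human Clariom S arrays, and differences are inhibitor minus control. Nothing in the labels says that arrays of a group came from separate cultures, so p-values reflect only how far these arrays differed, and that spread may be technical.

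NF-kappaB is a family of dimeric transcription factors that inhibitory IkappaB proteins hold in the cytoplasm. Signals from TNF, interleukin-1 or Toll-like receptors pass through adaptors and ubiquitin chains to the IkappaB kinase, which marks IkappaB for degradation and frees the dimers to enter the nucleus. Among the genes they switch on are cytokines, chemokines and adhesion molecules, as well as inhibitors such as NFKBIA and TNFAIP3 that end the signal. In ovarian carcinoma the pathway is known for driving inflammatory cytokines such as interleukin-6 and interleukin-8.

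The microRNA that the inhibitor targets is shown first, because its seed, bases 2 to 8, sets which messenger RNAs it can pair with. RefSeq lists 2 human mature microRNAs with this seed, miR-204-5p at chr9:70810031-70810052 and miR-211-5p at chr15:31065095-31065116 (both minus strand, GRCh38.p14). They are 22 bases long, differ at 2 positions outside the seed, and are printed 5′ to 3′ with the seed in capitals.
hsa-miR-204-5p: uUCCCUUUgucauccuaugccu
hsa-miR-211-5p: uUCCCUUUgucauccuucgccu
The level of miR-204-5p was not analysed here, so its block was not checked.

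Promoters are shown for 4 of the members with large moderated statistics. TNFAIP3, NFKBIZ and TRAF1 had the largest statistics of all, and TRAF3 had the largest among members that were lower. Each sequence is the 250 bases before the RefSeq start site (GRCh38.p14), 5′ to 3′ on the gene's strand, with matches to the kappaB motif in capitals. The motif searched was the kappaB consensus of 10 bases (GGG, a purine, any 2 bases, 2 pyrimidines and CC) on both strands, where a position matching on both counted once and reverse-strand matches appear as the reverse complement. The windows lie at chr6:137867009-137867258 (plus strand) for TNFAIP3, chr3:101827740-101827989 (plus strand) for NFKBIZ, chr9:120929172-120929421 (minus strand) for TRAF1 and chr14:102777199-102777448 (plus strand) for TRAF3. For genes with several start sites, a window with a match is shown where there was one, and otherwise the first listed.
TNFAIP3: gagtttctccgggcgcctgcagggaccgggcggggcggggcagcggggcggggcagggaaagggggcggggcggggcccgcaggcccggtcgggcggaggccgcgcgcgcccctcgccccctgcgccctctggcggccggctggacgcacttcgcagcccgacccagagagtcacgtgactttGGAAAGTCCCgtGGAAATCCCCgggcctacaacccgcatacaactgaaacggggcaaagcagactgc
NFKBIZ: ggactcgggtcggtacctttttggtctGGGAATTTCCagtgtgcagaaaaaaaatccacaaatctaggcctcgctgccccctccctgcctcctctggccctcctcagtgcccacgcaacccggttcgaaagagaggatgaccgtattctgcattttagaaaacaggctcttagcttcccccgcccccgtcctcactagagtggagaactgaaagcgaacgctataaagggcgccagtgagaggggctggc
TRAF1: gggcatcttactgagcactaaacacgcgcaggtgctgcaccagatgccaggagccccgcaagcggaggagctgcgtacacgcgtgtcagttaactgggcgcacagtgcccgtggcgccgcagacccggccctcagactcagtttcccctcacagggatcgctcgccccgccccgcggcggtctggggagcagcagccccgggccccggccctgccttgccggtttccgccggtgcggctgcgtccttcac
TRAF3: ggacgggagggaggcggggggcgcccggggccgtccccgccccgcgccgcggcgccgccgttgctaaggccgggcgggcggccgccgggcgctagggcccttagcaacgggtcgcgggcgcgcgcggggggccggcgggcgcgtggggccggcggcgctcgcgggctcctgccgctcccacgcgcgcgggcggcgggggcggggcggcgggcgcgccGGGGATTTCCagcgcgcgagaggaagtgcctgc
TNFAIP3 held 2 matches, which began 67 and 55 bases before the start site. NFKBIZ held 1 match, 223 bases before it, and TRAF3 held 1, 33 bases before it. None of the 3 TRAF1 windows held the motif.

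Over RefSeq windows of 300 bases, from 250 before to 50 after the start, 3956 of 35116 held the motif (11.3%), or 3619 of 27305 gene symbols in at least 1 window (13.3%). Of the 22 measured members with a window, 11 held it. Members were chosen as known NF-kappaB genes, so this share says nothing about the treatment. It was held by 6 of 7 inhibitors and feedback genes (NFKBIA, NFKBIB, NFKBIZ, TNFAIP3, TNIP1 and CYLD) and by 3 of 4 subunits (NFKB1, NFKB2 and REL). The other roles held it less often: 1 of 5 signalling genes (TRAF3), 1 of 3 secreted targets (CCL20) and 0 of 3 further targets. Only 3 of the 7 measured secreted targets had a window, and the difference between roles was not tested. A window without a match may still hold or lie near kappaB sites that differ from this consensus. By array pattern, 3 of 10 members with both inhibitor arrays above both controls held the motif. It was held by 2 of 3 with both below and by 6 of 9 whose groups overlapped. The motif stood in promoters of members that were higher, lower and overlapping.

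Array medians were 5.59 and 5.61 in the inhibitor arrays and 5.65 and 5.68 in the control arrays. The SD across features was 2.08 and 2.13 in the inhibitor arrays against 2.2 and 2.21 in the controls. Upper quartiles were 7.18 and 7.22 against 7.34 and 7.39. The part of this narrower spread in the differences was not tested. Pearson correlations across features were 0.986 within the inhibitor group, 0.995 within the control group and 0.984 to 0.989 between groups. The median difference over all features was -0.07, and it was -0.165 over features at or above the median level, where 26 of the 30 measured members lay. Of 10 carcinoma and epithelial markers, the keratin genes KRT7, KRT8 and KRT18 and the Müllerian lineage factor PAX8 (8.32 and 8.31 in the inhibitor arrays, 8.43 and 8.51 in the controls) were bright, while EPCAM, CDH1 and MSLN lay among the dimmest 25% of features (up to 3.965). Of these 10, 9 were below 0 and 1 above (10%, against 40.2% of all features). For 7 of them both inhibitor arrays lay below both controls (33.8% of all features did). Their median difference was -0.28. After quantile normalization 7 were below 0 and 3 above, with a median of -0.165. On the deposited values none of the 10 passed (lowest adjusted p = 0.18 in limma, for WT1 at -0.555). With the variance prior following expression level (an intensity trend) KRT7 passed in limma, lower (-0.40, adjusted p = 0.014). KRT7 did not pass after quantile normalization with the trend (adjusted p = 0.11). The endothelial gene CDH5 had 7.01 and 7.03 in the inhibitor arrays against 8.13 and 8.06 in the controls (difference -1.075, adjusted p = 0.10 in limma, and 0.00067 with the trend), while the differences of the other 5 endothelial markers lay between -0.11 and 0.47. The drug efflux pump ABCB1 had values of 7.67 and 7.55 in the inhibitor arrays and 7.68 and 7.77 in the controls. The pan-leukocyte gene PTPRC had 2.87 and 3.03 in the inhibitor arrays and 2.90 and 2.77 in the controls. The 7 measured leukocyte markers of 8 had a median difference of -0.085, against -0.07 for all features, with 3 above 0 and 4 below. The part of these markers in the results was not tested. These are bulk samples, in which fewer expressing cells and less RNA per cell cannot be told apart.

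After treatment with the miR-204-5p inhibitor, the feedback gene TNFAIP3 had the largest difference of the set, 2.03-fold higher in the inhibitor arrays. TRAF1, an adaptor, was 1.64-fold higher. The next in order of the moderated statistic were NFKBIZ (1.41-fold), PTGS2 (1.55-fold) and CSF3 (1.33-fold). No member passed an adjusted p of 0.05 over all features in limma (0 higher and 0 lower of 30; lowest adjusted p = 0.12), in a fit that called 0.0513% of features, all of them higher. At an unadjusted p under 0.05, 5 members were higher (16.7%) and 0 lower, against 5.11% of all features higher and 12.8% lower. Both inhibitor arrays lay above both controls for 13 members (43.3%) and below them for 4 (13.3%), against 16.5% and 33.8% of all features.

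Of the 30 members, 20 had a difference above 0 (66.7%), 9 below and 1 exactly at 0, while 40.2% of all features were above 0. Among features at or above the median level 25.5% were above 0, and so were 17 of the 26 members in that range. The members' median difference was 0.167 and they ran from -0.295 for TRAF3 to 1.02 for TNFAIP3. Simulations of this comparison on 21448 features recovered 0% of 2-fold changes and 98.5% of 4-fold changes at the adjusted threshold. They changed only a small share of features, all upward, and recovery depends on that share. They therefore do not settle whether 2-fold changes were detectable in these data. The simulations did not include the intensity trend described next.

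**Figure D1:**
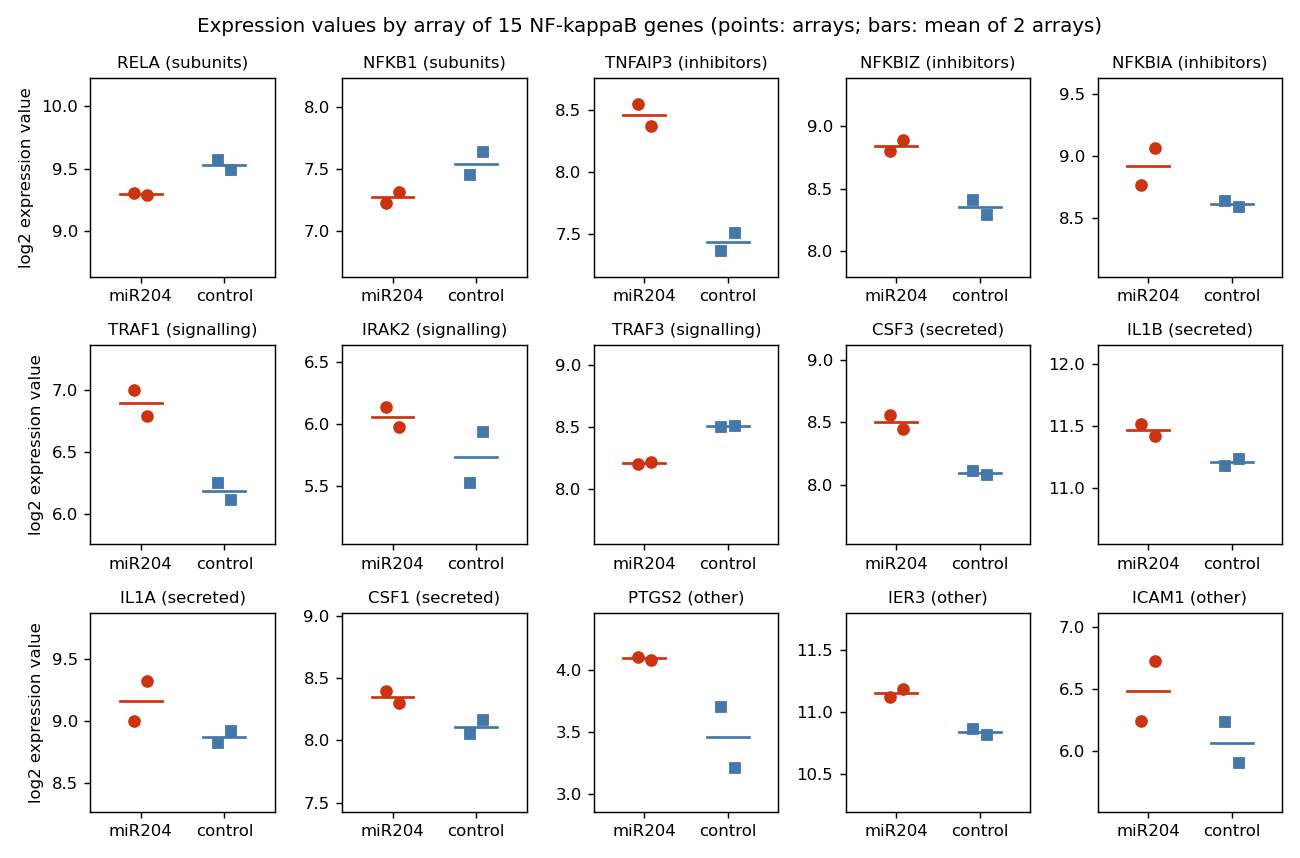
Log2 expression values on each of the 2 miR204 (inhibitor) arrays (red circles) and 2 control arrays (blue squares) for 15 NF-kappaB genes; bars are group means, and every panel spans the same height in log2 units. These genes were chosen for large absolute moderated statistics over all members and within each role, so separation is largely set by that choice. The groups do not overlap in any panel, but they overlapped for 13 of the 30 measured members. The gap is widest for TNFAIP3, with 8.55 and 8.37 in the inhibitor arrays against 7.37 and 7.51 in the controls. RELA, NFKB1 and TRAF3 lie lower in the inhibitor arrays.

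The call depended on how limma modelled the spread. With the intensity trend, 5 members passed, all higher: TNFAIP3 (adjusted p = 0.00087), TRAF1 (adjusted p = 0.018), NFKBIZ (adjusted p = 0.018), IER3 (adjusted p = 0.033) and CSF3 (adjusted p = 0.043). That fit called 1.02% of all features higher and 6.09% lower. At an unadjusted p under 0.05 it had 9 members higher and 2 lower (RELA and TRAF3), against 4.68% and 17.5% of all features. After quantile normalization with the trend, 8 members passed, the same 5 with NFKBIA, IL1A and IL1B, where 1.42% of all features were called higher; 14 were higher at an unadjusted p under 0.05, against 7.89%. Over features at or above the median level 3 members passed (TNFAIP3, TRAF1 and NFKBIZ), against 1.34% of those features called higher and 8.07% lower, and 5 were higher and 1, TRAF3, lower at an unadjusted p under 0.05, against 4.31% and 27.2%. Quantile normalization alone called 0 members and 0 features, and 10 members were then higher at an unadjusted p under 0.05, against 6.57% of all features.

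The 5 subunits of the factor, all measured, showed no common direction and none passed. NFKB1, which encodes the precursor of p50, had values of 7.23 and 7.32 in the inhibitor arrays and 7.45 and 7.64 in the controls. RELA, the main activating subunit p65, had 9.30 and 9.29 in the inhibitor arrays and 9.57 and 9.49 in the controls. Both genes were lower on both inhibitor arrays, by small amounts: -0.27 for NFKB1 (SE 0.15, 95% interval -0.626 to 0.086, adjusted p = 0.39 in limma) and -0.235 for RELA (SE 0.14, interval -0.569 to 0.099, adjusted p = 0.42). After quantile normalization the difference of RELA was -0.02 and that of NFKB1 was -0.11, and without control array 2 that of NFKB1 was -0.175.

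The other three subunits overlapped between groups. NFKB2, the precursor of p52 and an NF-kappaB target in its own right, differed by 0.19 (SE 0.175), with 7.10 and 7.49 in the inhibitor arrays against 7.12 and 7.09 in the controls. RELB, its partner in the non-canonical branch, had 6.69 and 6.11 in the inhibitor arrays against 6.26 and 6.26 in the controls, so its inhibitor arrays stood on either side of the controls. REL, the subunit best known from lymphocytes, differed by -0.005 (SE 0.193). With 1 array left out each of these turned sign, between -0.005 and 0.385 for NFKB2, -0.15 and 0.43 for RELB and -0.24 and 0.23 for REL.

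Inhibitors and feedback genes held the largest difference of the set. TNFAIP3 encodes A20, a ubiquitin-editing enzyme that shuts off signalling upstream of the IkappaB kinase. Its values were 8.55 and 8.37 in the inhibitor arrays and 7.37 and 7.51 in the controls, with means of 8.46 ± 0.127 in the inhibitor arrays and 7.44 ± 0.099 in the controls (SD, n = 2 each). Each inhibitor array exceeded each control by far more than the arrays of a group differed. The difference of 1.02 (SE 0.152, 95% interval 0.659 to 1.381, adjusted p = 0.12 in limma) ranked 62nd of all 21448 features from the highest. It stayed between 0.93 and 1.11 when any 1 array was left out.

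NFKBIZ encodes IkappaBzeta, an atypical nuclear IkappaB protein that, in mouse macrophages, is needed for full induction of Il6. It had 8.80 and 8.89 in the inhibitor arrays and 8.41 and 8.29 in the controls, a difference of 0.495 (SE 0.144, interval 0.151 to 0.839, adjusted p = 0.19 in limma). NFKBIA, the classical inhibitor IkappaBalpha that NF-kappaB induces to end its own activity, had 8.77 and 9.07 in the inhibitor arrays and 8.64 and 8.59 in the controls. Here the inhibitor arrays were apart from each other and the lower one stood just above the controls: the difference was 0.305 (SE 0.161, adjusted p = 0.37), and 0.155 without inhibitor array 2.

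The remaining 5 inhibitors overlapped between groups. NFKBIB, encoding IkappaBbeta, differed by 0.23 (SE 0.168), and CYLD, a deubiquitinase that restrains the pathway, also by 0.23 (SE 0.171). TNIP1, a partner of A20, differed by 0.145 (SE 0.163), its relative TNIP2 by 0, and NFKBIE, encoding IkappaBepsilon, by -0.005 (SE 0.149). The 8 measured genes of this role, of 10 named, had a median difference of 0.23, with 6 above 0, 1 below and 1 at 0. With 1 array left out NFKBIB ran from 0.105 to 0.355, CYLD from 0.10 to 0.36 and TNIP1 from 0.02 to 0.27, while TNIP2 ran from -0.13 to 0.13 and NFKBIE from -0.105 to 0.095.

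Signalling proteins had differences of both signs. TRAF1, an adaptor of TNF receptors that is itself induced by NF-kappaB, had 7.00 and 6.79 in the inhibitor arrays and 6.25 and 6.11 in the controls. The groups were well apart, with means of 6.895 ± 0.148 in the inhibitor arrays and 6.18 ± 0.099 in the controls (SD, n = 2 each) and a difference of 0.715 (SE 0.154, 95% interval 0.347 to 1.083, adjusted p = 0.15 in limma). TRAF3, an adaptor that restrains the non-canonical branch by promoting degradation of the kinase NIK, had 8.20 and 8.22 in the inhibitor arrays and 8.50 and 8.51 in the controls. It was the lowest difference among the members at -0.295 (SE 0.139, interval -0.625 to 0.035, adjusted p = 0.32), and -0.10 after quantile normalization.

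IRAK2, a kinase-like protein of interleukin-1 and Toll-like receptor signalling, had 6.14 and 5.98 in the inhibitor arrays and 5.53 and 5.94 in the controls. One control lay only just under the lower inhibitor array, and the difference of 0.325 (SE 0.183, adjusted p = 0.39 in limma) was 0.12 without control array 1. IKBKE, an IkappaB kinase-related kinase, differed by 0.075 (SE 0.14). IKBKB, the catalytic kinase of the canonical branch, differed by -0.125 (SE 0.204), and BIRC2, a ubiquitin ligase of the TNF receptor complex, by -0.08 (SE 0.166). The groups overlapped for both of these genes, and both turned above 0 without control array 2 (0.035 for IKBKB and 0.04 for BIRC2). The median of the 6 measured signalling genes, of 8 named, was -0.003, with 3 above and 3 below 0.

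Of the 7 measured secreted targets, none passed. For 4 of them both inhibitor arrays lay above both controls and for 1 below, against 16.5% and 33.8% of all features, and 2 overlapped. CSF3 encodes the granulocyte colony-stimulating factor, a cytokine that drives neutrophil production. It had 8.56 and 8.45 in the inhibitor arrays and 8.11 and 8.08 in the controls, a difference of 0.41 (SE 0.142, 95% interval 0.072 to 0.748, adjusted p = 0.22 in limma). The groups were separate by more than either differed within.

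Both interleukin-1 genes, which encode cytokines that activate NF-kappaB in turn, were higher on both inhibitor arrays. IL1B had 11.52 and 11.42 in the inhibitor arrays and 11.18 and 11.24 in the controls (difference 0.26, SE 0.142, adjusted p = 0.38 in limma). IL1A had 9.00 and 9.32 in the inhibitor arrays and 8.82 and 8.92 in the controls (difference 0.29, SE 0.166, adjusted p = 0.40). The lower IL1A value in the inhibitor group stood close to the higher control, and the difference was 0.13 without inhibitor array 2.

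CSF1, the macrophage colony-stimulating factor, had 8.40 and 8.30 in the inhibitor arrays and 8.05 and 8.16 in the controls, with a difference of 0.245 (SE 0.144, adjusted p = 0.41 in limma). The 3 measured CC chemokines, which attract leukocytes, had differences nearer to 0. CCL20 differed by 0.095 (SE 0.19) and CCL2 by 0.055 (SE 0.256), both with overlapping groups, and CCL5 by -0.075 (SE 0.14). CCL2 varied most within a group, at 5.14 and 4.36 in the inhibitor arrays against 4.76 and 4.63 in the controls. The 7 measured secreted targets, of 9 named, had a median of 0.245, with 6 above 0 and 1 below, and 4 above 0 without control array 2, where CCL2 was at -0.01 and CCL20 at -0.125.

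Of the further targets, PTGS2, the inducible cyclooxygenase of prostaglandin synthesis, had 4.10 and 4.08 in the inhibitor arrays and 3.70 and 3.21 in the controls. The difference was 0.635 (SE 0.192, interval 0.178 to 1.092, adjusted p = 0.20 in limma), but its mean level lay among the dimmest 25% of features, where background was not analysed here, and it was 0.39 without control array 2. IER3, a stress-inducible survival gene, had 11.12 and 11.18 in the inhibitor arrays and 10.86 and 10.81 in the controls. Its groups were tight and apart, with a difference of 0.315 (SE 0.14, adjusted p = 0.30). ICAM1, the adhesion molecule that leukocytes bind, had 6.24 and 6.72 in the inhibitor arrays and 6.23 and 5.90 in the controls. The lower inhibitor array and the higher control nearly coincided for ICAM1 (difference 0.415, SE 0.21, adjusted p = 0.35; 0.175 without inhibitor array 2). TNFAIP2, a TNF-induced gene, differed by -0.06 (SE 0.205) with overlapping groups, and by 0.19 without inhibitor array 2.

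**Figure D2:**
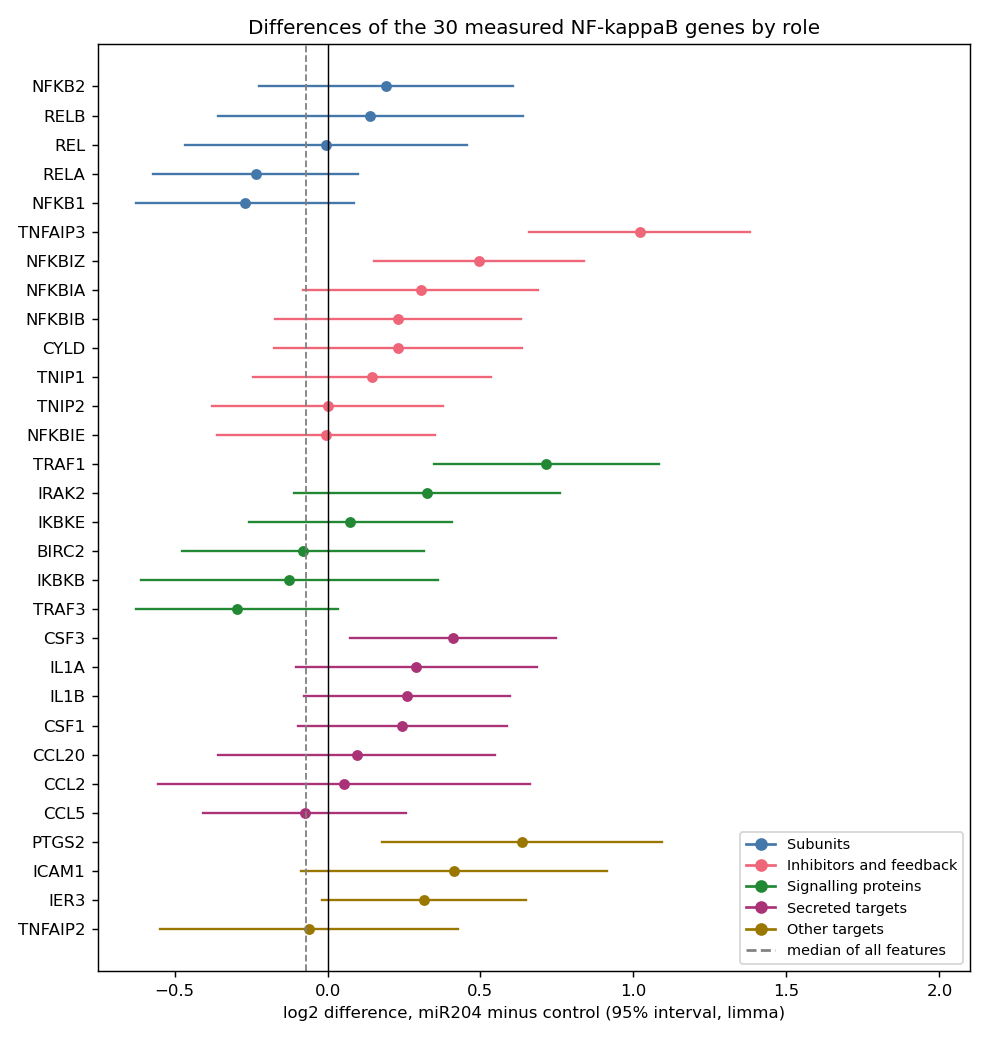
Log2 difference (inhibitor minus control) of each of the 30 measured NF-kappaB genes with its 95% interval from limma, coloured by role; the dashed line is the median of all features at -0.07. The intervals of TNFAIP3, TRAF1, NFKBIZ, PTGS2 and CSF3 lie above 0, and no interval lies below it.

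Set side by side, the medians were -0.005 for subunits, 0.23 for inhibitors and feedback genes, -0.003 for signalling proteins, 0.245 for secreted targets and 0.365 for the 4 measured further targets. The difference between roles was not tested. When 1 array at a time was left out, the subunit median ran from -0.225 to 0.075, that of inhibitors from 0.103 to 0.318 and that of secreted targets from 0.195 to 0.295. After quantile normalization the medians were 0.078 for subunits, 0.349 for inhibitors, 0.159 for signalling proteins, 0.414 for secreted targets and 0.50 for further targets, and the median of all features was -0.004.

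**Figure D3:**
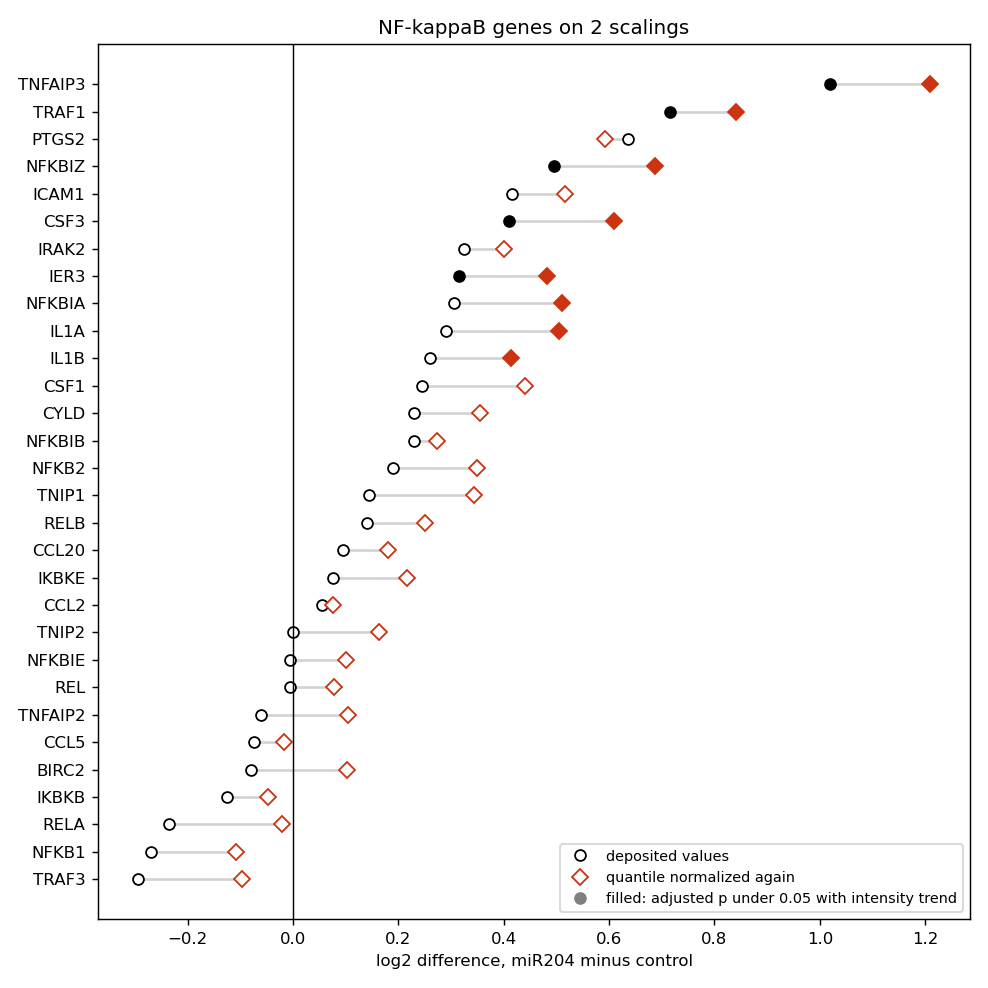
Log2 difference (inhibitor minus control) of the 30 genes on the deposited values (black circles) and after quantile normalization of them (red diamonds); filled symbols passed an adjusted p of 0.05 in limma with an intensity trend. All but PTGS2 moved upward with quantile normalization; 5 symbols are filled on the deposited values and 8 after it.

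Further genes of the pathway were taken by list, and no list was tested against another. Of 17 receptors and adaptors named, 13 were measured, 5 above and 8 below 0, with a median of -0.055, and none passed; the 38.5% above 0 was near the 40.2% of all features. TRAF5, an adaptor of TNF receptors, differed by -0.635 (SE 0.177, adjusted p = 0.18 in limma), with 3.78 and 4.17 in the inhibitor arrays and 4.67 and 4.55 in the controls. The interleukin-1 receptor IL1R1 differed by 0.46 (SE 0.167), the double-stranded RNA sensor TLR3 by -0.44 (SE 0.164) and the receptor TNFRSF11A by -0.225 (SE 0.165). The levels of TRAF5, IL1R1, TLR3 and TNFRSF11A were low, with group means of at most 5.28, and IL1R1 lay among the dimmest 25% of features.

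Of 18 genes of the kinase complexes and ubiquitin machinery, 17 were measured, 4 above (23.5%) and 13 below 0, with a median of -0.17 against -0.07 for all features. At or above the median level lay 15 of them, 4 above 0 (26.7%), near the 25.5% of all features in that range. None passed, and after quantile normalization 9 were above and 8 below 0, with a median of 0.039. MALT1, a protease and scaffold that carries antigen receptor signals to the IkappaB kinase, had 7.61 and 7.72 in the inhibitor arrays and 8.37 and 8.61 in the controls. Its groups were far apart, with a difference of -0.825 (SE 0.156, interval -1.196 to -0.454, adjusted p = 0.14 in limma). With the intensity trend MALT1 and UBE2N passed, both lower (adjusted p = 0.0034 and 0.023), in a fit that called 6.09% of all features lower. After quantile normalization with the trend MALT1 passed (adjusted p = 0.015) and UBE2N did not (difference -0.274, adjusted p = 0.20), where 1.19% of all features were called lower. UBE2N, which builds the ubiquitin chains of the pathway, differed by -0.47 (SE 0.139), AZI2, a partner of the kinase TBK1, by -0.87 (SE 0.27), and SHARPIN, a subunit of the linear ubiquitin ligase, by -0.465 (SE 0.163). The values of AZI2 in the inhibitor arrays, 3.76 and 4.59, were far apart, against 4.95 and 5.14 in the controls, and its difference ran from -0.455 without inhibitor array 1 to -1.285 without inhibitor array 2.

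Of 26 further reported NF-kappaB targets, 25 were measured, 11 above (44%) and 13 below 0, with a median of -0.025. The share above 0 was near the 40.2% of all features. At or above the median level lay 16 genes of the list, 9 above 0 (56.2%), against 25.5% of all features in that range. The list was chosen with earlier results of these data known. Only the cytokine gene IL6 and the chemokine gene CXCL8 passed over all features in limma, and both rose. That fit called 0.0513% of all features higher. IL6 had 6.87 and 7.06 in the inhibitor arrays and 4.24 and 3.83 in the controls (adjusted p = 0.028), and CXCL8 had 9.50 and 9.60 in the inhibitor arrays and 8.06 and 8.03 in the controls (adjusted p = 0.041). The lower IL6 control lay among the dimmest 25% of features, so its fold is uncertain. Neither passed after quantile normalization alone, where the lowest adjusted p of any feature was 0.058. BCL2A1, a survival gene of the BCL2 family, had 6.42 and 6.66 in the inhibitor arrays and 7.68 and 7.80 in the controls (difference -1.20, SE 0.156, adjusted p = 0.10). TNFAIP8, a TNF-induced regulator of cell death, differed by -0.91 (SE 0.219, adjusted p = 0.16), and by -0.605 without control array 2. With the intensity trend 4 genes of the list passed higher and 2 lower, against 1.02% and 6.09% of all features. The higher ones were IL6, CXCL8 and the chemokine genes CXCL1 (difference 0.53, adjusted p = 0.0079) and CXCL3 (difference 0.52, adjusted p = 0.028), which were named after their values were seen. The lower ones were BCL2A1 (adjusted p = 0.00080) and TNFAIP8 (adjusted p = 0.036), and TNFAIP8 did not pass after quantile normalization with the trend (adjusted p = 0.077).

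**Figure D4:**
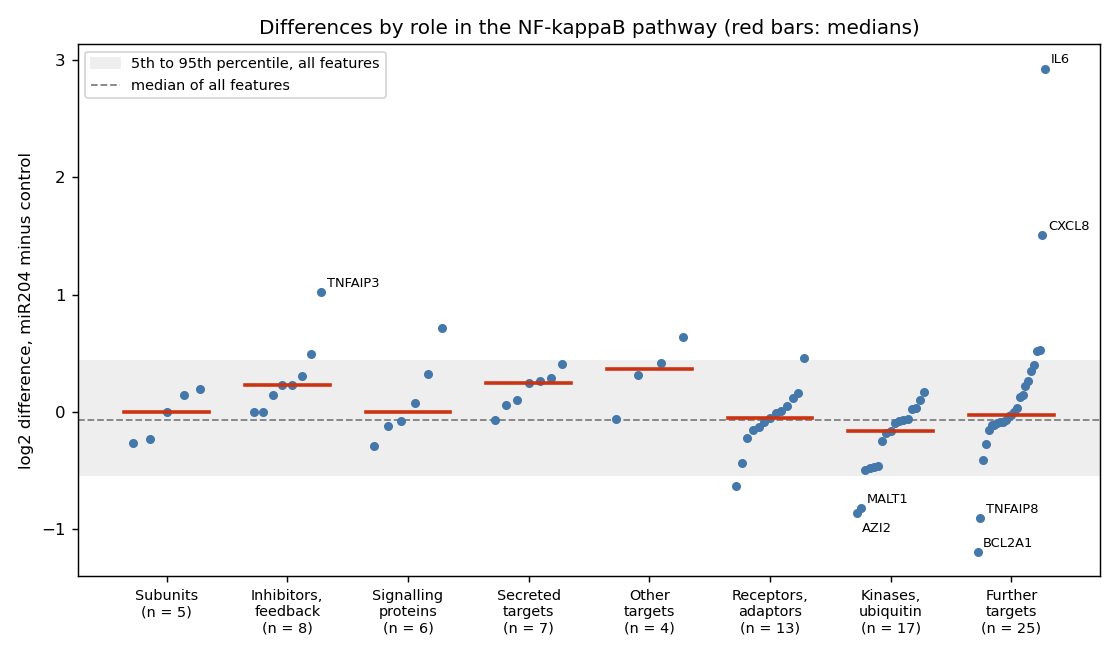
Log2 difference (inhibitor minus control) of each gene in the 5 roles and in 3 further lists of the pathway; red bars are list medians, the dashed line is the median of all features, and the grey band spans their 5th to 95th percentile (-0.54 to 0.435). IL6, CXCL8, TNFAIP3, TRAF1, PTGS2, CXCL1, CXCL3, NFKBIZ and IL1R1 stand above the band, and BCL2A1, TNFAIP8, AZI2, MALT1 and TRAF5 below it.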

How the data were processed

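Total RNA of 4 samples was hybridised to Human Clariom S arrays. The deposited log2 expression values were made by the authors with RMA (background correction, normalization and probe summary); per the submitters' processing notes, the program was Transcriptome Analysis Console 4.0. Its parameters and the genome build are not given in the sources used here. Of 21448 features, 17709 had 1 symbol in the platform annotation and 3739 none. The comparison used lmFit and eBayes of limma 3.58.1, run in R 4.3.3 (2 residual and 4.78 prior degrees of freedom) without a filter or block, with Benjamini-Hochberg adjustment over all features and a threshold of 0.05. Intervals are at 95%. An exact permutation of 2 against 2 arrays cannot go below p = 0.333 (two-sided), so none was run. The number of arrays limits the precision. The members and lists were chosen with earlier results of these data known, so no list was tested and no p was adjusted over a list. Values by array are given for the 14 members with the largest absolute moderated statistic and for 2 in each role, and up to 4 genes are named per further list. The fit was tested on simulated data. Alternatives were an intensity trend, a robust prior, a replicate block, quantile normalization, equal array medians, filters on dim features, leaving out each array and averaging features of a symbol. Deviations of arrays with the same replicate number correlated at 0.00579 across features, so the numbers were not taken to pair the arrays. Promoter and microRNA sequences are from RefSeq (GRCh38.p14), and 29 of the 37 genes had a promoter window; the motif was chosen after other kappaB-like motifs had been looked at.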

Additional observations from a re-analysis of the deposited data

How the results depend on the processing

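The count of members past the adjusted threshold was 0 higher and 0 lower on the deposited values. It was 5 higher with the intensity trend and 8 higher with quantile normalization and the trend together. Over features at or above the median level it was 3 higher (TNFAIP3, TRAF1 and NFKBIZ). It was 0 under the robust prior, equal array medians, quantile normalization alone, features at or above the 25th percentile and averaged features. Quantile normalization alone called 0 of all features either way. Fits with 1 array left out kept only 1 array in 1 group, so only differences are given for them. The count at an unadjusted p under 0.05, 5 higher and 0 lower, became 9 higher and 2 lower with the trend. It was 10 higher after quantile normalization, 14 higher with both, and 5 higher and 1 lower over features at or above the median level. The shares of all features in these fits are given above. The members' median of 0.167 became 0.309 after quantile normalization, with or without the trend, and 0.232 with equal array medians, and ran from 0.12 to 0.212 with 1 array left out. With the replicate block 0 members passed (lowest adjusted p = 0.32) and 5 were higher at an unadjusted p under 0.05; the block moved the count over all features to 0. The sign of the difference turned for 4 members after quantile normalization, 3 with equal array medians and up to 7 without control array 2, none of which passed in any fit. Detection calls were not analysed here, which among the members limits PTGS2 most.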
